A study of Homo sapiens with 4 samples.

Results

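The 36 genes described here encode the pyruvate dehydrogenase complex with its kinases, phosphatases and pyruvate carrier, the enzymes of the citric acid cycle, and enzymes at its side entries. They were taken by symbol from a list of 36, and all 36 had a row among the 30863 genes of the deposited table. The samples are HepG2 cells, an established human liver cancer line that the labels call hepatoblastoma, with the genotype given as WT in every sample. Exposure lasted 48 h, either to the solvent DMSO or to AMF, which the series title spells out as amentoflavone, a biflavonoid of plants. Each group has 2 poly(A)-selected RNA libraries, numbered as replicates 1 and 2. The treatment protocol names 90 µM AMF, whereas the design text of the series gives Tub B at 80 µM. Compound and dose are therefore uncertain, and AMF here means the group with that name in the sample titles. All groups are 1 cell line grown in the same medium, and the labels do not say that replicates were separate cultures, so the spread behind each p-value is that of the libraries and may be technical only.

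Pyruvate made by glycolysis enters mitochondria through the carrier MPC1 and MPC2. The pyruvate dehydrogenase complex turns it into acetyl-CoA, which citrate synthase joins to oxaloacetate. Kinases of the PDK family phosphorylate the complex and switch it off, and the phosphatases PDP1 and PDP2 reverse this. Pyruvate carboxylase instead makes oxaloacetate from pyruvate and is known in liver for its part in glucose formation. The cycle then passes through citrate, 2-oxoglutarate, succinate, fumarate and malate, and its intermediates also serve lipid and amino acid synthesis.

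Reads counted in genes came to 24226586 to 26966210 per library. Values are normalized counts, that is, reads recovered from the deposited log2 values and divided by a size factor per library. Errors are SDs over the 2 libraries of a group. A change is the mean log2(normalized count + 1) of AMF less that of DMSO, and its adjusted p comes from limma. Mitochondrially encoded genes took 7.69% to 7.73% of the reads in DMSO and 9.53% to 9.61% in AMF. All 10 hepatocyte markers were present, with a summed level of 569209 to 589046 in DMSO and 395055 to 416151 in AMF, and 1 of them rose and 7 fell. Sums over the listed markers of leukocytes were 215 to 243 in DMSO and 106 to 137 in AMF, of fibroblasts 195 to 211 and 23.7 to 33.4, and of endothelium 159 to 188 and 291.5 to 319. COL1A2, COL3A1, DCN and KDR had at most 1 read in each library, and CD3E and CD68 had 0 reads in DMSO. The part of these marker levels in the results below was not tested. In bulk RNA, fewer cells of a type and less RNA per cell cannot be told apart.

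Of the 36 genes, 15 rose in AMF, 3 fell and 18 did not pass an adjusted p of 0.05. The 3 that fell were the kinases PDK1, PDK2 and PDK3, and the 15 that rose include both phosphatases, 2 subunits of the pyruvate dehydrogenase complex, 8 genes of the cycle itself, MPC2, pyruvate carboxylase (PC) and the malic enzyme ME2. Over all 23828 genes tested, 31.8% passed, 15.6% as higher and 16.2% as lower, so 41.7% higher and 8.33% lower among the members stand beside those shares. A mean of 100 or more normalized counts was reached by 34 members and by 11137 genes, and of the latter 54.7% passed, 23.6% as higher and 31.1% as lower. The median change of the members was 0.18, against 0.04 over all genes tested and -0.04 over those with a mean of at least 100. Both AMF libraries lay above both DMSO libraries for 23 members and below for 6, or 63.9% and 16.7% of the members. Of all genes tested 63.4% had groups that did not overlap, 33.8% with AMF above and 29.7% below, and of those with a mean of at least 100 it was 79.9%, 35.4% above and 44.6% below. No test of the list as a whole was made. Most changes were small: 33 of the 34 members with a mean of at least 100 changed by less than 1 (log2), the exception being PDP1.

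The counts depended on single libraries. With limma, 8 members rose and 1 fell without DMSO replicate 1, 7 rose and 2 fell (PDK1 and IDH1) without DMSO replicate 2. Without AMF replicate 1 or AMF replicate 2, 0 passed with limma's adjusted p, while 11 and 13 had p under 0.05 before adjustment. With voom weights, fitted to the reads themselves, limma called 19 higher and 3 lower with all libraries, 2 and 0 without either AMF library, 18 and 3 without DMSO replicate 1, and 14 and 5 without DMSO replicate 2. The 18 calls kept their direction in each of these fits. DMSO replicate 1 was higher than DMSO replicate 2 for 28 of the 36 genes, and the median gap between the DMSO libraries was 0.099 (log2), against 0.064 between the AMF libraries.

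**Figure D1:**
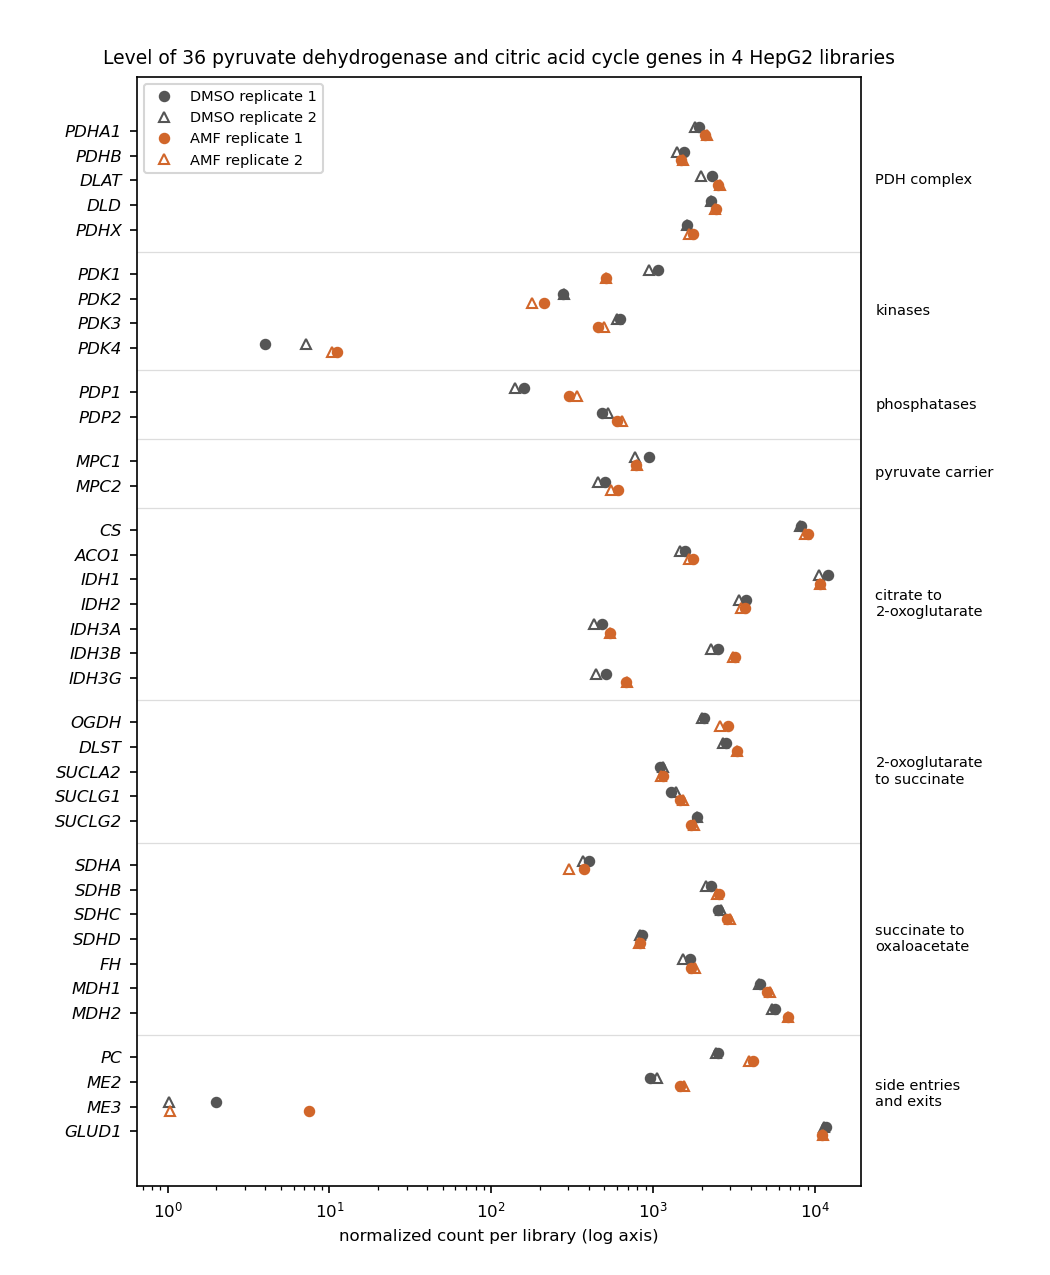
Normalized count of each of the 36 genes (log axis) in the 4 libraries, grouped by role, with DMSO in grey and AMF in orange, circles for replicate 1 and triangles for replicate 2. PDK1 sits at 938 to 1071 in DMSO and 511 to 515 in AMF, while PDK4 and ME3 lie near the bottom of the axis in all 4 libraries.

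The kinases showed the falls. PDK1, an isoform known to be raised by hypoxia, had 1071 and 938 normalized counts in DMSO replicates 1 and 2 and 515 and 511 in AMF replicates 1 and 2. Both AMF libraries were close to each other and well below the DMSO libraries, with a log2 change of -0.96, SE 0.0809 and adjusted p = 4.24e-07. PDK2, a widely expressed isoform, had 277 and 280.3 in DMSO and 211 and 178 in AMF. Its groups did not overlap, though the AMF libraries differed from each other more than the DMSO libraries did (-0.52, SE 0.123, adjusted p = 0.00432). PDK3, encoded on the X chromosome, had 621 and 603 in DMSO and 455 and 498 in AMF, which is a smaller fall with groups that did not overlap (-0.36, SE 0.0843, adjusted p = 0.00395). PDK4, the isoform known to be raised in fasting, was nearly silent, with 4 and 7 reads in DMSO and 12 and 10 in AMF. Its change of 0.87 had a 95% interval from -0.31 to 2.06 and did not pass (adjusted p = 0.264), and without DMSO replicate 1 it was 0.52. Exons of PDK2 overlap 2113 bases of SAMD14 on the opposite strand, and those of PDK1 overlap 445 bases of an antisense gene, so in libraries without strand their reads cannot be told apart from the neighbour's there. The calls of PDK2 and PDK3 ended with limma without either DMSO library.

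The phosphatases moved the other way. PDP1, which acts on the E1 subunit of the complex and is activated by calcium, had 159 and 141 in DMSO and 302 and 340.0 in AMF. Its AMF mean was 2.14 times its DMSO mean, and this was the largest rise of the members past the threshold (1.09, SE 0.126, adjusted p = 9.79e-06). PDP2, the isoform that does not need calcium, had 486 and 528 in DMSO and 598 and 642 in AMF, a smaller rise without overlap (0.29, SE 0.0846, adjusted p = 0.0162). Without AMF replicate 2, voom gave PDP1 a change of 1.01 with adjusted p = 0.0511, and without AMF replicate 1 a change of 1.18 with adjusted p = 0.0474. The call of PDP2 ended with limma without DMSO replicate 1 or DMSO replicate 2, and with voom without DMSO replicate 1.

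To set kinases and phosphatases against each other, counts were divided by the length of the longest principal transcript in GENCODE. Summed over PDK1 to PDK4 and divided by the sum over PDP1 and PDP2, the ratio per kb was 4.57 and 4.34 in DMSO and 2.19 and 2.06 in AMF. Both AMF libraries were thus lower, and the mean ratio went from 4.45 ± 0.160 (SD, n = 2) to 2.13 ± 0.0868 (SD, n = 2). The exact two-sided permutation test gave p = 0.333, which is the smallest p that 2 libraries against 2 allow. This ratio was chosen after the values were seen. The share of PDK1 in kinase transcripts per kb was 15.7% and 14.3% in DMSO and 10.8% and 10.3% in AMF (exact permutation p = 0.333). The level of that share rests on the length used, since the principal PDK1 transcript is 14.193 kb long and that of PDK3 1.921 kb: without length the share was 54.3% and 51.3% in DMSO and 43.2% and 42.7% in AMF. In each way of counting, both AMF libraries were lower than both DMSO libraries.

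**Figure D2:**
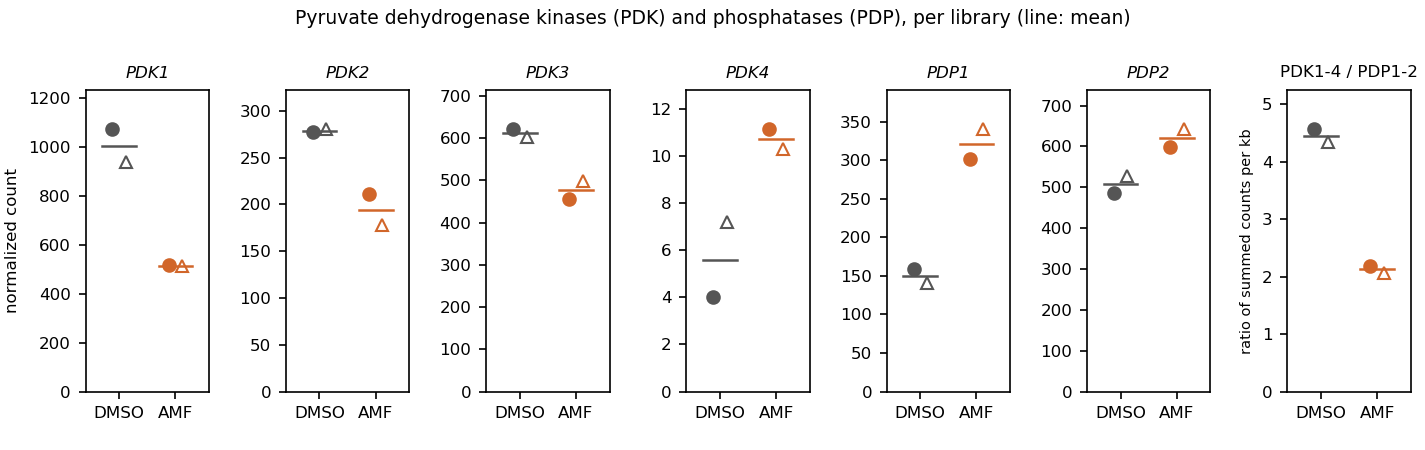
Normalized counts of the 4 pyruvate dehydrogenase kinases and 2 phosphatases in each library, with lines at the group means and axes from 0, and at the right the ratio of summed kinase to summed phosphatase counts per kb of transcript. The AMF points lie below the DMSO points for PDK1, PDK2 and PDK3, above them for PDP1 and PDP2, and the ratio is 4.34 to 4.57 in DMSO and 2.06 to 2.19 in AMF.

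Start regions of PDK1, PDK2, PDK3 and PDP2 are shown because these kinases fell while the phosphatase rose, and each holds the letters searched. The window of PDK4, which did not pass, holds no match and is not printed. In the 250 bases before each start in RefSeq's promoter table, ACGTG, a form of the core of the hypoxia response element, was searched. That table is of GRCh38.p14, another build than the hg19 named in the submitters' processing notes. Both strands were searched, and ACGTG reads CACGT on the printed strand when it lies on the other. CACGTG holds it on both strands and counts as 2 matches. Capitals mark these letters, and each line runs 5′ to 3′ on the gene's strand and ends at the base before the start, at chr2:172555840-172556089 (plus strand), chr17:50095101-50095350 (plus), chrX:24465036-24465285 (plus) and chr16:66880265-66880514 (plus).
PDK1: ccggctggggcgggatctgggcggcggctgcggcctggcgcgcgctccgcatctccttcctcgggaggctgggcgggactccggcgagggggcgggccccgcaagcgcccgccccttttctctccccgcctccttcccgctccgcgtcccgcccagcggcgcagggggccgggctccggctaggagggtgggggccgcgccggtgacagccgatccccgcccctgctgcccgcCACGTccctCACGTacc
PDK2: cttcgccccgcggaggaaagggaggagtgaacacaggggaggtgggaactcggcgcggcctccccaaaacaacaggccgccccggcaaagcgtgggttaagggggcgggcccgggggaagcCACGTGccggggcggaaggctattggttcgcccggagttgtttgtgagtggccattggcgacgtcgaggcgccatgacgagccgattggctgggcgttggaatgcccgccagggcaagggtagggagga
PDK3: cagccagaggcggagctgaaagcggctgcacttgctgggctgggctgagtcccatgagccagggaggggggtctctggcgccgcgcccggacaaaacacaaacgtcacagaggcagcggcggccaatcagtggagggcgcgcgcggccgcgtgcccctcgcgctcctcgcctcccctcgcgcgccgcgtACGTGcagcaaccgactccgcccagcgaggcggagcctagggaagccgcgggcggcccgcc
PDP2: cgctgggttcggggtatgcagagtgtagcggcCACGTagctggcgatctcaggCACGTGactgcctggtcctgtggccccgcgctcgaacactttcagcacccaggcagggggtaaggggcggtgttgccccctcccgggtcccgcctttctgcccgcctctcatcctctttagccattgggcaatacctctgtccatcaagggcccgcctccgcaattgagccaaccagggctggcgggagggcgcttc

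Of the 36 members, 33 had an entry in that table, those without being PDP1, OGDH and SDHC. ACGTG stood in at least 1 window of 11 of these 33 genes, or 33.3%, against 21.7% of all 27305 genes in the table. It stood in all 3 members that fell, in 4 of 12 that rose and in 4 of 18 that did not pass. PDK1 and PDK2 have other starts in the table whose windows do not hold the letters, and PDP2 holds them although it rose. GCGTG is the core of the xenobiotic response element and also a form of the core of the hypoxia response element. It stood in 21 of the 33 genes, or 63.6%, against 36.2% of all genes. By call, it stood in 2 of 3 that fell, 6 of 12 that rose and 13 of 18 that did not pass. GCGTG was also searched on both strands, and it can share its first base with the last base of ACGTG. For ACGTG and GCGTG alike, the share over all genes was not matched to the members for base content or expression level. A match is a run of letters and says nothing of binding in these cells.

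In the pyruvate dehydrogenase complex itself, 2 of 5 subunit genes rose and 3 did not pass. PDHA1, the X-linked gene of the E1 alpha subunit that the kinases phosphorylate, had 1914 and 1825 in DMSO and 2102 and 2151 in AMF (change 0.19, SE 0.0549, adjusted p = 0.0177). DLAT, the E2 core that carries lipoate, had 2300.1 and 1978 in DMSO and 2517 and 2601 in AMF (change 0.26, SE 0.0661, adjusted p = 0.00666). The gap between the DMSO libraries was 0.22 (log2) for DLAT, close to its change, and its change was 0.37 without DMSO replicate 1 and 0.15 without DMSO replicate 2, where the limma call ended (adjusted p = 0.121). The call of PDHA1 ended with limma without either DMSO library, and with voom without DMSO replicate 2. PDHB, which encodes E1 beta, had 1482 ± 115 in DMSO and 1502 ± 26.6 in AMF, with overlapping groups (0.02, 95% interval -0.12 to 0.16). DLD, the E3 dehydrogenase shared with other 2-oxoacid dehydrogenases, had a change of 0.09 (-0.02 to 0.20) and PDHX, the E3 binding protein, one of 0.08 (-0.04 to 0.20). Exons of all 5 genes overlap those of a neighbour, by 70 bases for DLD to 956 bases for PDHA1.

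The carrier subunits differed in call. MPC2 had 504 and 458 in DMSO and 605 and 552 in AMF (change 0.27, SE 0.0888, adjusted p = 0.0326), and its call ended with a pseudocount of 0.1, with no filter on low values and without DMSO replicate 1 or DMSO replicate 2. MPC1 had 948 and 771 in DMSO and 780.0 and 800.4 in AMF, so that its AMF libraries lay between the DMSO libraries (-0.11, 95% interval -0.31 to 0.08, adjusted p = 0.382). Without DMSO replicate 2, where its change was -0.26, voom called it lower, and without DMSO replicate 1 its change was 0.035. The difference between the changes of the carrier subunits was not tested.

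**Figure D3:**
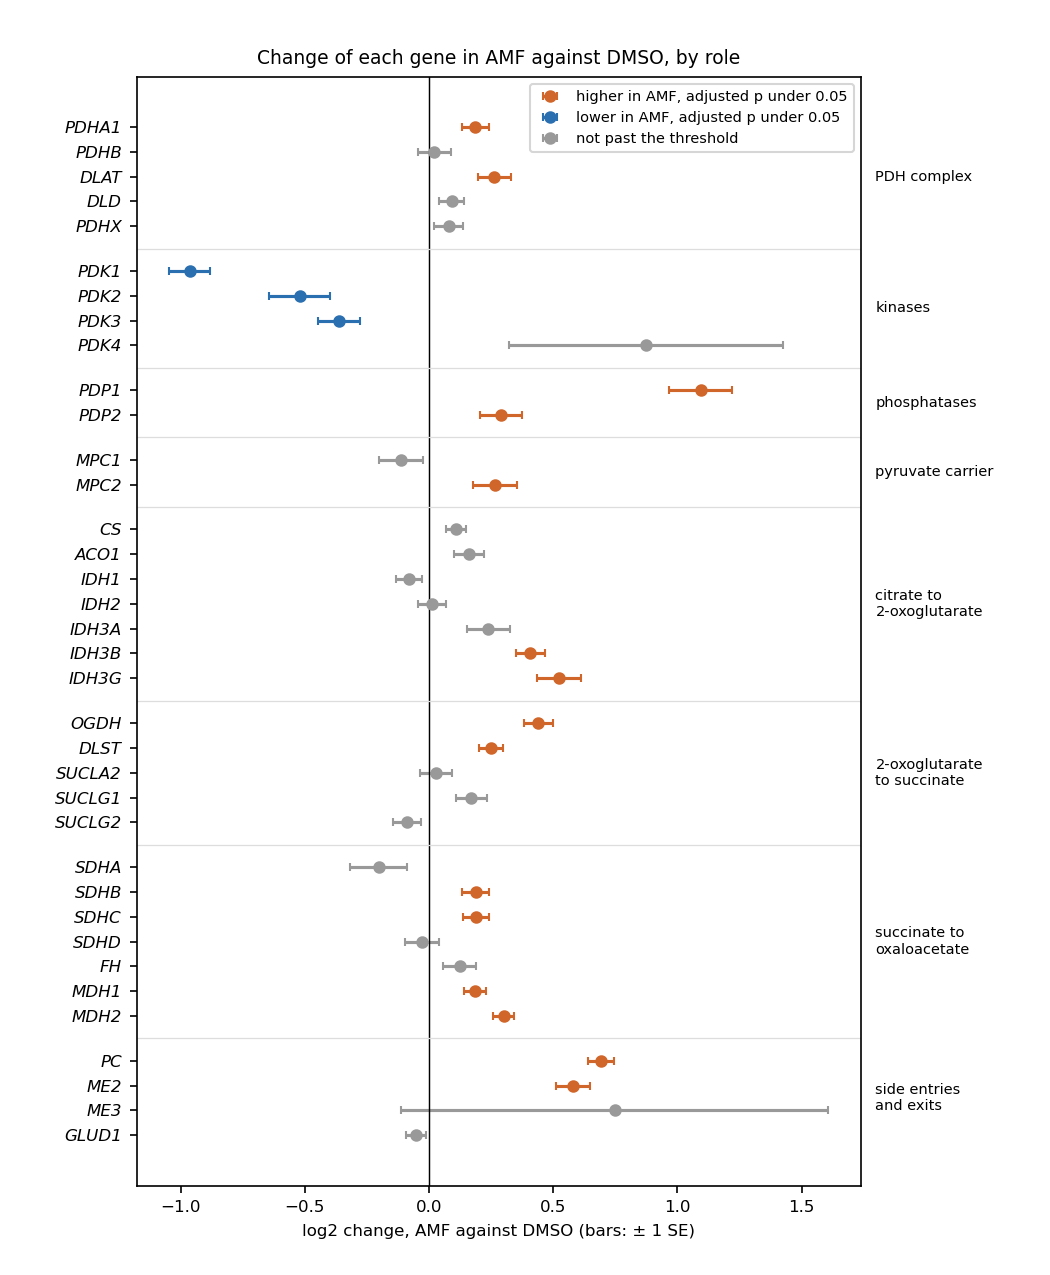
Log2 change of each gene in AMF against DMSO, with bars of ± 1 SE, grouped by role and coloured by the limma call at an adjusted p of 0.05. The 3 blue points are PDK1, PDK2 and PDK3, from -0.96 to -0.36, and the orange points run from 0.18 for MDH1 to 1.09 for PDP1.

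Along the cycle, 8 of 19 genes rose, 0 fell with limma and 11 did not pass, and the median change was 0.17. In the steps from oxaloacetate to 2-oxoglutarate, the genes that rose were subunits of the NAD-dependent isocitrate dehydrogenase, a regulated step of the cycle. IDH3G, the gamma subunit encoded on the X chromosome, had 511 and 446 in DMSO and 679 and 693 in AMF (change 0.52, SE 0.0871, adjusted p = 2.86e-04). IDH3B, the beta subunit, had 2504 and 2265 in DMSO and 3207 and 3114 in AMF (change 0.41, SE 0.0567, adjusted p = 5.71e-05). IDH3A, the catalytic alpha subunit, had 485 and 434 in DMSO and 541 and 542 in AMF. Its groups did not overlap but it missed the threshold (0.24, adjusted p = 0.0527), and its exons overlap 2608 bases of ACSBG1. The NADP-dependent isocitrate dehydrogenases did not pass: the cytosolic IDH1 had 12056 and 10594 in DMSO and 10695 and 10696 in AMF, and the mitochondrial IDH2 had 3558 ± 249 and 3588 ± 158. The change was -0.08 for IDH1 (95% interval -0.19 to 0.03) and 0.01 for IDH2 (-0.11 to 0.13). Without DMSO replicate 2 the change of IDH1 was -0.17 and it was called lower with limma and with voom, and without DMSO replicate 1 it was 0.014.

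Citrate synthase (CS), which starts the cycle, had 8239.9 and 8126 in DMSO and 9027 and 8629.6 in AMF, and its groups did not overlap. CS missed the threshold (0.11, SE 0.0414, adjusted p = 0.0591), as did the cytosolic aconitase ACO1, also an iron-regulatory protein (0.16, SE 0.0613, adjusted p = 0.062). CS, ACO1, IDH3A and the succinyl-CoA synthetase gene SUCLG1 were the 4 members that passed as higher in addition under 4 other settings, namely voom on all libraries, a mean of at least 10, library totals as scaling, and the replicate number as a model term.

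From 2-oxoglutarate to succinate, the members for the E1 and E2 subunits of the 2-oxoglutarate dehydrogenase complex both rose. OGDH, its E1 subunit, had 2054 and 1993 in DMSO and 2892 and 2606 in AMF (change 0.44, SE 0.0588, adjusted p = 3.97e-05). DLST, its E2 subunit, had 2812 and 2718 in DMSO and 3284 and 3294 in AMF, with the AMF libraries nearly equal (change 0.25, SE 0.0488, adjusted p = 0.00104). The call of OGDH ended with limma without either DMSO library. None of the 3 succinyl-CoA synthetase genes passed. SUCLG1, the alpha subunit, had a change of 0.17 (adjusted p = 0.0522), the ATP-forming beta subunit SUCLA2 had 1121 ± 31.9 in DMSO and 1142 ± 22.6 in AMF, and the GTP-forming beta subunit SUCLG2 had 1870.3 ± 14.1 and 1758 ± 59.9. SUCLG2 changed in sign opposite to SUCLG1, at -0.09 with a 95% interval from -0.21 to 0.03.

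Of the 4 succinate dehydrogenase subunits, which also form complex II of the respiratory chain, SDHB and SDHC rose by the same amount to 2 decimals. SDHB, the iron-sulfur subunit, had 2264 and 2134 in DMSO and 2543 and 2466 in AMF (change 0.19, SE 0.054, adjusted p = 0.0151). SDHC, a membrane anchor, had 2506 and 2623 in DMSO and 2864 and 2980.2 in AMF (change 0.19, SE 0.0517, adjusted p = 0.0115). SDHD, the other anchor, had 841 ± 12.1 in DMSO and 824 ± 10.7 in AMF (-0.03, 95% interval -0.18 to 0.12). SDHA, the flavoprotein, had 403 and 371 in DMSO and 374 and 301 in AMF, with overlapping groups (-0.20, 95% interval -0.45 to 0.04). Per kb of principal transcript the DMSO level of SDHA was 162, against 1907 for SDHB. SDHA has unprocessed pseudogenes, of which SDHAP1 had 438, 356, 406 and 285 reads and SDHAP3 598, 468, 338 and 347 in DMSO replicates 1 and 2 and AMF replicates 1 and 2. SDHA itself had 403, 361, 403 and 292 reads, so how reads were split between it and these copies is uncertain. Calls of SDHB and SDHC ended with limma without either DMSO library, and that of SDHB with voom without DMSO replicate 2.

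The last steps held the fumarase gene FH and the malate dehydrogenases. MDH2, the mitochondrial enzyme that closes the cycle, had 5645 and 5444 in DMSO and 6832 and 6825 in AMF (change 0.30, SE 0.0426, adjusted p = 6.80e-05). MDH1, the cytosolic enzyme of the malate-aspartate shuttle, had 4600.3 and 4523 in DMSO and 5070.0 and 5296 in AMF (change 0.18, SE 0.0452, adjusted p = 0.00567), and its call ended with limma without either DMSO library. FH had 1702 and 1527 in DMSO and 1705 and 1807 in AMF, where AMF replicate 1 lay just above DMSO replicate 1 (0.12, adjusted p = 0.178). Its change with limma was 0.20 without DMSO replicate 1, where voom called it higher (adjusted p = 0.0219), and 0.044 without DMSO replicate 2. Per kb, MDH2 and MDH1 had DMSO levels of 2510.0 and 2765, near that of CS at 2751, and all 3 lay below IDH1 at 4639.6 and GLUD1 at 3807.

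At the side entries, PC and ME2 had the largest rises after PDP1 among members past the threshold. PC, the carboxylase that refills the cycle with oxaloacetate, had 2530.1 and 2451 in DMSO and 4166 and 3892 in AMF. Its AMF mean was 1.62 times its DMSO mean (0.69, SE 0.0516, adjusted p = 1.27e-07), and its exons overlap 621 bases of LRFN4. It was called without each DMSO library with limma and without each single library with voom. ME2, the mitochondrial malic enzyme that makes pyruvate from malate, had 953 and 1063 in DMSO and 1465 and 1544 in AMF (change 0.58, SE 0.0691, adjusted p = 1.35e-05). ME3, the NADP-dependent mitochondrial malic enzyme, was hardly detected, with 2 and 1 reads in DMSO and 8 and 1 in AMF, below a floor of 3 reads in 3 of 4 libraries, and its change of 0.75 did not pass (95% interval -1.10 to 2.59). GLUD1, glutamate dehydrogenase, was among the most abundant members, with 11752 and 11388 in DMSO and 11129 and 11179 in AMF. Its AMF libraries lay below both DMSO libraries, but by little, with a change of -0.05 (95% interval -0.14 to 0.03, adjusted p = 0.343).

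Genes around the cycle were taken from 3 further lists. Of 18 genes of other 2-oxoacid dehydrogenases, lipoate attachment and assembly factors, 4 rose, 1 fell and 13 did not pass, with a median change of 0.03. The largest rises were in SDHAF4, an assembly factor of succinate dehydrogenase listed under its older symbol C6orf57 (120.3 ± 30.2 in DMSO and 192 ± 5.77 in AMF, 0.69, adjusted p = 0.00593), and BCKDK, the kinase of branched-chain 2-oxoacid dehydrogenase (0.46, adjusted p = 1.48e-05). The change of SDHAF4 was 0.95 without DMSO replicate 2 and 0.43 without DMSO replicate 1, where its call ended with limma (adjusted p = 0.111) and with voom (adjusted p = 0.095). BCKDHB, a subunit of that dehydrogenase, fell (-0.36, adjusted p = 0.0131), a call that ended with limma without either DMSO library and with voom without DMSO replicate 2. MRPS36, named after its values were seen, had a change of 0.39 (adjusted p = 0.00326).

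Of 19 tested enzymes and carriers that feed or drain the cycle, 8 rose, 4 fell and 7 did not pass, with a median change of 0.08. SLC25A10, the dicarboxylate carrier, rose, with 680 and 698 in DMSO and 1082 and 935 in AMF (0.55, adjusted p = 8.89e-05), a call that ended with limma without either DMSO library, and ACLY, which splits exported citrate to acetyl-CoA, rose by 0.42 (adjusted p = 2.79e-06). GPT2, the mitochondrial alanine transaminase, had 11991 ± 339 in DMSO and fell to 6838 ± 92.4 with AMF (-0.81, SE 0.0408, adjusted p = 2.26e-09). PCK2, the mitochondrial phosphoenolpyruvate carboxykinase, fell (-0.50, adjusted p = 6.39e-04), with a change of -0.71 without DMSO replicate 1 and of -0.29 without DMSO replicate 2, where the limma call ended (adjusted p = 0.0775). The malic enzyme ME1, named here after its values were seen, had 0 reads in both DMSO libraries and 5 reads in each AMF library. ME1 is among the 8 that rose (limma adjusted p = 0.0287), and it reached the filter mean of 1 only through its AMF reads. With 3 reads over both DMSO libraries as the floor, its AMF mean was 3.22 times that floor. The counting error of the AMF reads is not in this value.

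Of 11 genes of thiamine and coenzyme A supply, cofactors that the dehydrogenase complexes need, 4 rose, 2 fell and 5 did not pass. The thiamine transporter SLC19A2 rose from 1081 ± 8.26 in DMSO to 1466 ± 40.5 in AMF (0.44, adjusted p = 5.91e-05). PANK1, a pantothenate kinase that limits coenzyme A synthesis, had 694 ± 5.53 in DMSO and fell to 377 ± 10.3 with AMF (-0.88, SE 0.0827, adjusted p = 1.38e-06), and its paralog PANK3 fell by 0.17 (adjusted p = 0.0234). The call of PANK3 ended with no filter on low values (adjusted p = 0.058), with limma without either DMSO library and with voom without DMSO replicate 1.

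**Figure D4:**
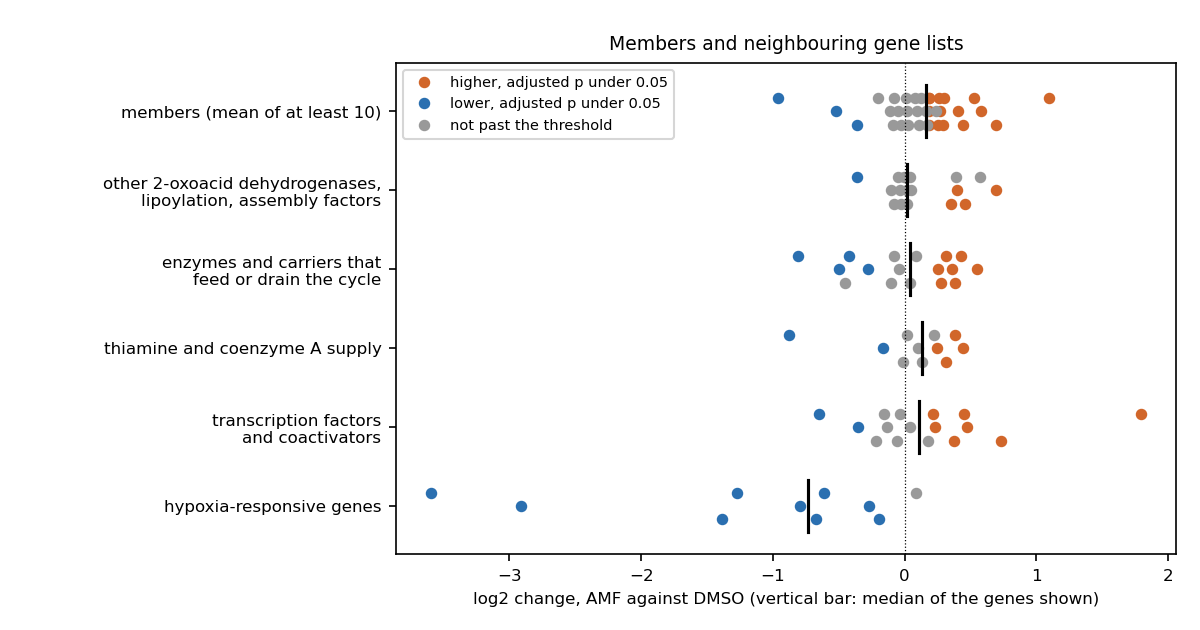
Log2 change in AMF against DMSO of the members and of genes on 5 neighbouring lists whose mean reached 10 normalized counts, 1 point per gene, with a bar at the median of the genes shown. The median of the 34 members shown lies at 0.16 and that of the 10 hypoxia-responsive genes at -0.74.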

How the data were processed

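The deposited table held log2 values for 30863 genes in 4 libraries, matched to samples by column name. The submitters' processing notes name STAR 2.7.0, featureCounts and hg19. What was done on annotation, multiply matching reads, filters and normalization is not given in the sources used here. From the values, whose lowest in each library is 6.01, they look like size-factor-scaled counts after a variance-stabilizing transformation. If V is a value and f the lowest, scaled counts equal 2 to the power V, less 2 times 2 to the power f, plus 2 to the power (2f - V). Divided by the worth of 1 read, 100% of values were whole within 0.01 reads. Size factors were 1.0004, 0.974, 1.0769 and 0.9707. Counting noise did not account for the spread within groups, with chi-square over degrees of freedom at 4.31 for DMSO and 2.36 for AMF.

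The unit being log2, the test planned for such values was used, limma 3.58.1 with trend (R 4.3.3). It ran on log2(normalized count + 1), took genes whose mean reached 1 (23828), and had group as sole term, Benjamini-Hochberg adjustment over all of them, threshold 0.05. All 36 members passed that filter. On this scale changes of low genes are understated. Intervals are 95%, and read floors cover counting error only. The recovery and the fit were checked on simulated counts.

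The members and lists were chosen with earlier results of these data known. All 36 members are named, and from each other list up to 2 rises and 2 falls that passed and had means of 10 or more. Some genes of these lists enter the counts but are not reported here by name. Alternatives were other pseudocounts, filters and scalings, voom, the deposited log2 values themselves, a replicate block and leaving out each library. Of the listed genes, 2 (LDHB and PTPRC) were not analysed here, and 2 matched by an older symbol through RefSeq. Lengths and exon overlaps are from GENCODE 29, of another build, so gene coordinates are not given. Exons of 18 members overlap another gene, and 10 members have a named pseudogene. Figures used matplotlib 3.10.9 in Python 3.11.15.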

Additional observations from a re-analysis of the deposited data

How the results depend on the processing

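Each named gene's change was recomputed under up to 15 other settings. Of 793 such values, 587 kept their direction and side of the threshold, 167 lost the threshold, 25 gained it and 14 reversed. The reversals were all among members that did not pass and all came from leaving out a library. They were MPC1 (0.035 with limma and 0.034 with voom), IDH1 (0.014 and 0.014) and SUCLA2 (-0.0024 and -0.0016) without DMSO replicate 1, PDHB (-0.058 and -0.059) and IDH2 (-0.058 and -0.056) without DMSO replicate 2, and IDH2 (-0.032 and -0.032) and ME3 (-0.28 and -0.35) without AMF replicate 1. With limma and a library left out, the other ends of their ranges were -0.26 for MPC1, -0.17 for IDH1 and 0.056 for SUCLA2 without DMSO replicate 2, 0.10 for PDHB and 0.084 for IDH2 without DMSO replicate 1, and 1.77 for ME3 without AMF replicate 2. With 1 library in a group, that library is assumed to vary like the other group. The count over all genes was 7578, and 3531 and 3442 without DMSO replicates 1 and 2, 0 without either AMF library (6575 and 6387 at an unadjusted p under 0.05), and with voom 6776, 6580, 1379 and 1315 without DMSO replicates 1 and 2 and AMF replicates 1 and 2. limma's prior degrees of freedom were 11.9 with all libraries, 0.995 without AMF replicate 1 and 1.003 without AMF replicate 2. Members higher ranged from 0 to 18 and lower from 0 to 5 over these fits (limma 8, 7, 0 and 0 higher and 1, 2, 0 and 0 lower; voom 18, 14, 2 and 2 higher and 3, 5, 0 and 0 lower, in the same order). Over the other settings 14 to 19 members were higher and 3 lower. Same-numbered libraries did not deviate together (r = 0.0238 across 11137 genes). Such a value from 2 libraries per group cannot show whether they shared a culture or preparation. In a fit with the replicate number as a block 8157 genes passed, and 19 members were higher and 3 lower. The difference in the PDK1 share (-4.46 percentage points) was -7.28 per kb of exon union and -9.85 per read, and -5.18 to -3.74 with a library left out. That of the kinase to phosphatase ratio (-2.33) was -1.50 per kb of exon union and -1.625 per read, and -2.44 to -2.21 with a library left out; these settings were chosen after the values were seen, as was the exon union for the share. Depth limits PDK4 and ME3, which had at most 12 reads in any library.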

Other observations

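Transcription factors and coactivators known to act on these genes moved in both directions. Of 17 tested, 7 rose, 2 fell and 8 did not pass, with a median change of 0.18. PPARGC1B, a coactivator of mitochondrial genes, rose to 107 ± 8.72 with AMF, against 30.8 ± 8.73 in DMSO (1.79, SE 0.25, adjusted p = 5.97e-05). Its change with limma was 2.07 without DMSO replicate 1 and 1.51 without DMSO replicate 2, and over all settings it ran from 0.78 to 2.10. HIF1A, the oxygen-regulated subunit of a hypoxia-inducible factor, rose as a transcript to 6984 ± 84.1 with AMF, against 4211 ± 152 in DMSO (0.73, SE 0.0449, adjusted p = 1.87e-08). FOXO1, a factor known to act on PDK4, fell (-0.65, adjusted p = 3.06e-05), as did TFAM, which acts on mitochondrial DNA (-0.36, adjusted p = 3.92e-05). The call of FOXO1 ended with limma without either DMSO library.

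Of 10 hypoxia-responsive genes outside the cycle, chosen with their direction known from earlier results, 0 rose with limma, 9 fell and 1 did not pass. The largest falls were in CA9, a carbonic anhydrase (268 ± 132 in DMSO and 19.9 ± 1.99 in AMF, -3.59, adjusted p = 2.31e-07), and EGLN3, a prolyl hydroxylase that marks hypoxia-inducible factors for breakdown (-2.91, adjusted p = 2.46e-05). The DMSO libraries differed in both, with 361 and 175 for CA9 and 96.0 and 54.4 for EGLN3 in replicates 1 and 2. PDK1 was among the 28 of 36 members that were higher in DMSO replicate 1. VEGFA and SLC2A1 of this list, named after their values were seen, were lower in DMSO replicate 1. Their log2 gaps were -0.074 and -0.11, and the other genes of the list were higher in that library. Over all settings the change ran from -4.14 to -1.74 for CA9 and from -3.40 to -0.94 for EGLN3.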
